A study of Rattus norvegicus with 14 samples.

Results

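Genes of methionine and sulfur amino acid metabolism were followed in rat liver across 3 magnesium diets. The 9 genes were Mat1a, Mat2a, Gnmt, Ahcy, Bhmt, Cbs, Cth, Cdo1 and Csad, out of 4736 genes named on the array. Every probe set whose platform annotation gave 1 of these symbols was taken, which gave 14 probe sets out of 8740 other than controls. A probe set is the group of short array probes that together read 1 transcript. All 14 passed the filter on dim signals.

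The liver samples came from the left lateral lobe and fell into a magnesium-deficient diet (4 arrays, numbers 11 to 14), a magnesium-supplemented diet (5 arrays, numbers 1 to 5) and a standard diet (5 arrays, numbers 6 to 10). The labels give no strain, sex, age, magnesium content, feeding time or other treatment, and name no agent or allele that the groups share. They do not say that each array was a separate animal, so the spread between arrays may be technical and p-values measure only that spread.

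In liver, methionine adenosyltransferases turn methionine into S-adenosylmethionine, the methyl donor of the cell. Methyltransferases such as glycine N-methyltransferase use it and leave S-adenosylhomocysteine, which is hydrolysed to homocysteine. Homocysteine is either methylated back to methionine, with betaine or folate as the methyl source, or passed through cystathionine to cysteine, from which taurine, sulfate and glutathione are made. The liver is known as the main site of this pathway, and methionine adenosyltransferase uses magnesium ions with its ATP.

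Hepatocyte markers were strong on every array. The 5 measured hepatocyte markers of a list of 6 summed to between 29509 and 31673 units in deficient livers, 26927 and 32507 in supplemented livers, and 28832 and 32271 in standard livers. Of 8 listed Kupffer cell markers, 6 were on the array and 5 passed the filter on dim signals. Those 5 summed to between 618 and 901 units in deficient livers, 762 and 1143 in supplemented livers, and 646 and 866 in standard livers. Measures of RNA quality differed between diets in their means, mainly for the supplemented arrays. Single arrays of the diets overlapped, and this difference was not tested. The log2 ratio of the Gapdh control signals at the 3' and 5' ends of the transcript, which is higher in RNA that is more degraded or less fully copied, was 1.84 ± 0.65 in deficient livers (SD, n = 4), 0.71 ± 0.49 in supplemented livers (SD, n = 5) and 1.64 ± 0.61 in standard livers (SD, n = 5). The same ratio for beta-actin was 1.85 ± 0.82 in deficient livers (SD, n = 4), 0.96 ± 0.20 in supplemented livers (SD, n = 5) and 1.52 ± 0.71 in standard livers (SD, n = 5). Deficient array 13 and standard array 10 had the highest ratios. Supplemented array 5 stood apart in its mean rank correlation with the other arrays, 0.885, against 0.921 to 0.938 for the rest. Where a difference larger than its standard error moved by over 1.5 times without one of these 3 arrays, the value without that array is given beside it.

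Promoter sequences are shown for Mat1a and Mat2a, whose signals moved together over the arrays, and for Gnmt and Ahcy, whose supplemented diet gave the lowest means. The RefSeq tables of assembly GRCr8 held promoters for 8 of the 9 genes, Cdo1 being the other. Each run covers 130 bases, from 150 to 21 bases before the table's transcription start, 5' to 3' on the gene's strand, with the letters TATAA in capitals where they occur.
Mat1a, chr16:17017018-17017147, plus strand: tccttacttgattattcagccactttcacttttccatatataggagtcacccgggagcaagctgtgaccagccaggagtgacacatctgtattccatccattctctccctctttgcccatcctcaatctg
Mat2a, chr4:106053633-106053762, minus strand: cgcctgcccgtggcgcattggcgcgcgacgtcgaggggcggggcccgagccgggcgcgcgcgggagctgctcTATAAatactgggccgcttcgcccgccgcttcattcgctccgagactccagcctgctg
Gnmt, chr9:21752132-21752261, plus strand: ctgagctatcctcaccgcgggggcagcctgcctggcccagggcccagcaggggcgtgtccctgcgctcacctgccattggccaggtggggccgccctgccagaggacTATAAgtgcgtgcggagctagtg
Ahcy, chr3:164044583-164044712, minus strand: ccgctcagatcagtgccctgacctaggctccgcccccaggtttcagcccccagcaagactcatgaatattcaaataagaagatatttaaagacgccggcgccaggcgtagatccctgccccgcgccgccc

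The letters TATAA, read on both strands, occurred in 4 of the 8 promoters, against 13.9% of 33469 promoters of the same length. They began 42 bases before the start in Cth, 43 in Gnmt, 29 in Bhmt and 78 in Mat2a. CCAAT on either strand occurred in 4 of the 8, against 21.3% of all promoters, and GGGCGG in 5 of the 8, against 23.6%. The amino acid response letters TGATGNAAT occurred in 0 of the 8 and in 0.511% of all promoters. No match overlapped another in the 8 promoters. These are matches of letters in a short window, and the window follows the table's start. For Gnmt the gene record begins inside the printed run, and the whole Csad window lies inside its gene record. The GC content was 46.9% in Mat1a, and in the others from 56.2% (Bhmt) to 73.1% (Mat2a and Csad). The median over all promoters was 52.3%, and the part of base composition in the motif counts was not tested. The Mat1a run held none of these motifs and the Mat2a run held 3 of the 4.

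No member passed the test in any comparison. Log2 signals of 5133 probe sets were fitted with limma, and a call required p under 0.05 after Benjamini-Hochberg adjustment over all of them. Of the 14 member probe sets 0 were called for deficient against standard, where 0% of all probe sets were called. For supplemented against standard 0 of 14 were called, again with 0% of all probe sets. For deficient against supplemented 0 of 14 were called, beside 0.0195% of all probe sets, and for any difference among the 3 diets by the F-test 0 of 14, beside 0.0195%. Before adjustment, p under 0.05 was reached by 1 member probe set for deficient against standard (3.04% of all probe sets), which was higher (1.32% higher and 1.71% lower over all). It was reached by 3 for supplemented against standard (8.88%), all lower (4.73% lower and 4.15% higher over all), and by 3 for deficient against supplemented (13.0%), all higher (6.86% higher and 6.18% lower over all). These belonged to Gnmt, Ahcy and Cbs. Arrays of deficient and standard livers did not separate for any member probe set, beside 0.682% of all probe sets separated with deficient higher and 0.760% with deficient lower. In bulk liver RNA, fewer cells of a type and less RNA per cell cannot be told apart.

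With 1 probe set for each gene, the median log2 difference over the 9 members was -0.05 for deficient against standard, 0.06 for supplemented against standard and -0.09 for deficient against supplemented. Over all 3073 genes tested the same medians were 0.01, -0.03 and 0.05. For deficient against standard 2 of the 9 genes were higher and 7 lower, beside 52.8% higher and 47.2% lower of all genes. For supplemented against standard 7 were higher and 2 lower, beside 45.1% and 54.9%. For deficient against supplemented 4 were higher and 5 lower, beside 56.3% and 43.7%. Of the 14 member probe sets, 10, 7 and 4 differed by less than their standard error in these comparisons, so such signs are uncertain. The 3 comparisons share arrays in pairs and are not independent of one another.

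**Figure D1:**
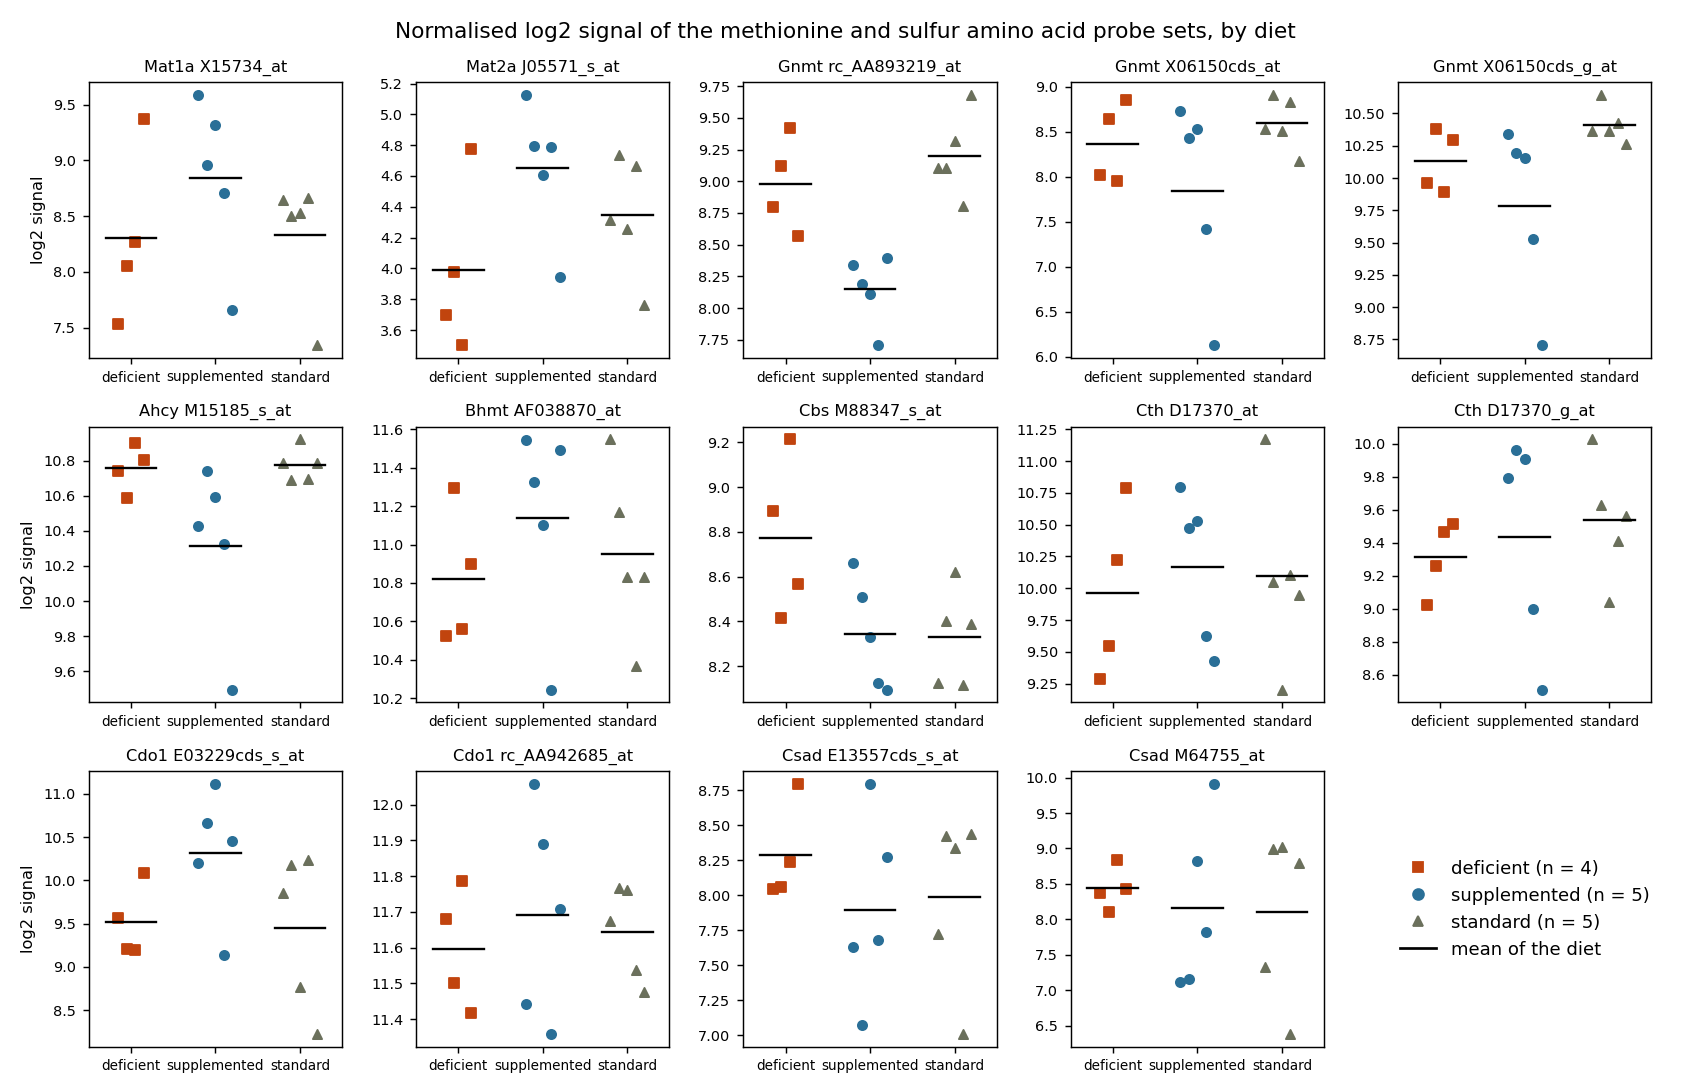
Normalised log2 signal (vertical axis) of the 14 probe sets by diet (horizontal axis: 4 deficient, 5 supplemented and 5 standard arrays), with 1 point per array and a bar at the mean of the diet. The supplemented arrays of the Gnmt probe set rc_AA893219_at lie below all other arrays, and in the other panels the diets overlap.

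**Figure D2:**
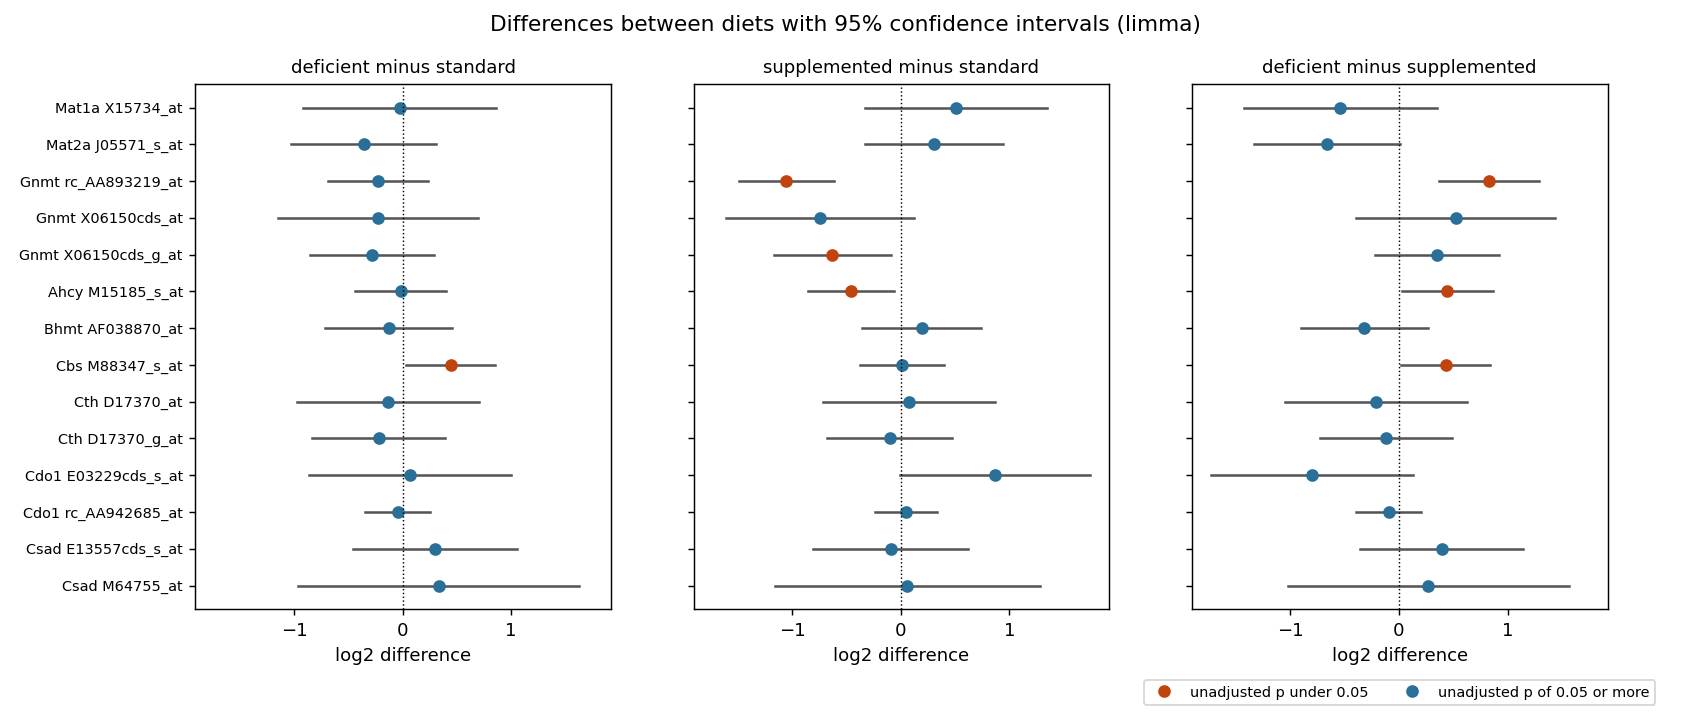
Log2 differences (horizontal axis) between diets for the 14 probe sets, with 95% confidence intervals from limma in 3 panels, 1 per comparison. An unadjusted p under 0.05 was reached by 1, 3 and 3 probe sets from left to right, and 0 were called after adjustment.

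Mat1a and Mat2a encode the catalytic subunits of methionine adenosyltransferase, which make S-adenosylmethionine. Mat1a is the form of adult hepatocytes and Mat2a the form of most other tissues and of dividing liver cells. Mat1a lies at chr16:17017168-17035368 and Mat2a at chr4:106048043-106053612 (GRCr8). The Mat1a probe set X15734_at read 185, 265, 309 and 664 units in deficient livers, 769, 498, 639.6, 417 and 201 units in supplemented livers, and 401, 362, 368, 405 and 162 units in standard livers. The diets overlapped, and supplemented array 5 and standard array 10 were the lowest of their diets. The log2 difference was -0.54 for deficient against supplemented (SE 0.42, adjusted p = 0.579) and 0.51 for supplemented against standard (SE 0.39, adjusted p = 0.713). Without supplemented array 5 these were -0.84 and 0.82, and without standard array 10 supplemented against standard gave 0.26. Deficient against supplemented was -0.89 without deficient array 14.

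The Mat2a probe set J05571_s_at was dim, and 3 of its 14 arrays fell below 14.3 units, the level used to filter probe sets by their mean. It read 13.0, 15.8, 11.3 and 27.4 units in deficient livers, 34.9, 27.8, 24.3, 27.6 and 15.4 units in supplemented livers, and 19.8, 26.6, 19.1, 25.4 and 13.6 units in standard livers. Of the deficient arrays 3 lay among the 5 lowest of the 14. Deficient against supplemented gave -0.66 (95% interval -1.33 to 0.01, adjusted p = 0.386), and deficient against standard -0.36 (adjusted p = 0.999). Supplemented against standard gave 0.31 (adjusted p = 0.766). The deficient against standard difference was -0.20 without deficient array 13, -0.62 without deficient array 14 and -0.50 without standard array 10. The supplemented against standard difference was 0.16 without standard array 10 and 0.49 without supplemented array 5, so both depended on single arrays.

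The 2 isozyme genes moved together over the arrays. Mat1a and Mat2a had Pearson's r = 0.839 (permutation p = 0.00025, adjusted p = 0.00751 over 91 pairs) and Spearman's rho = 0.851 (permutation p = 0.00025, adjusted p = 0.0114) over the 14 arrays. Of the 85 pairs of probe sets from different genes, this was the 1 pair past the adjusted threshold for r. The pattern was not particular to the pair. Among 3064 genes outside the members, the closest by r were closer to each gene than the 2 were to one another. They were Kpnb1 (r = 0.935) and Slc16a12 (r = 0.895) for Mat1a, and F9 (r = 0.921) and Aldh6a1 (r = 0.910) for Mat2a. With the diet means removed r was 0.851, without arrays 10 and 11 it was 0.775, and without supplemented array 5 it was 0.831. Both signals were lower on arrays with a higher beta-actin 3'/5' ratio. For Mat2a that relation had r = -0.87 and rho = -0.82 (permutation, adjusted p = 0.0014 and 0.00513 over 28 relations), and for Mat1a r = -0.72 and rho = -0.87 (adjusted p = 0.0137 and 0.00224). With the Gapdh ratio r was -0.59 for Mat2a and -0.42 for Mat1a (permutation, adjusted p = 0.0909 and 0.307). Those values depended on single arrays. They were -0.91 and -0.82 without supplemented array 5, and -0.26 and -0.18 without arrays 13 and 10. After a straight line on the beta-actin ratio was removed from both genes, r between them was 0.62. With the beta-actin ratio as a covariate in the diet fit, the Mat1a difference for deficient against supplemented was 0.14 and that of Mat2a -0.12.

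**Figure D3:**
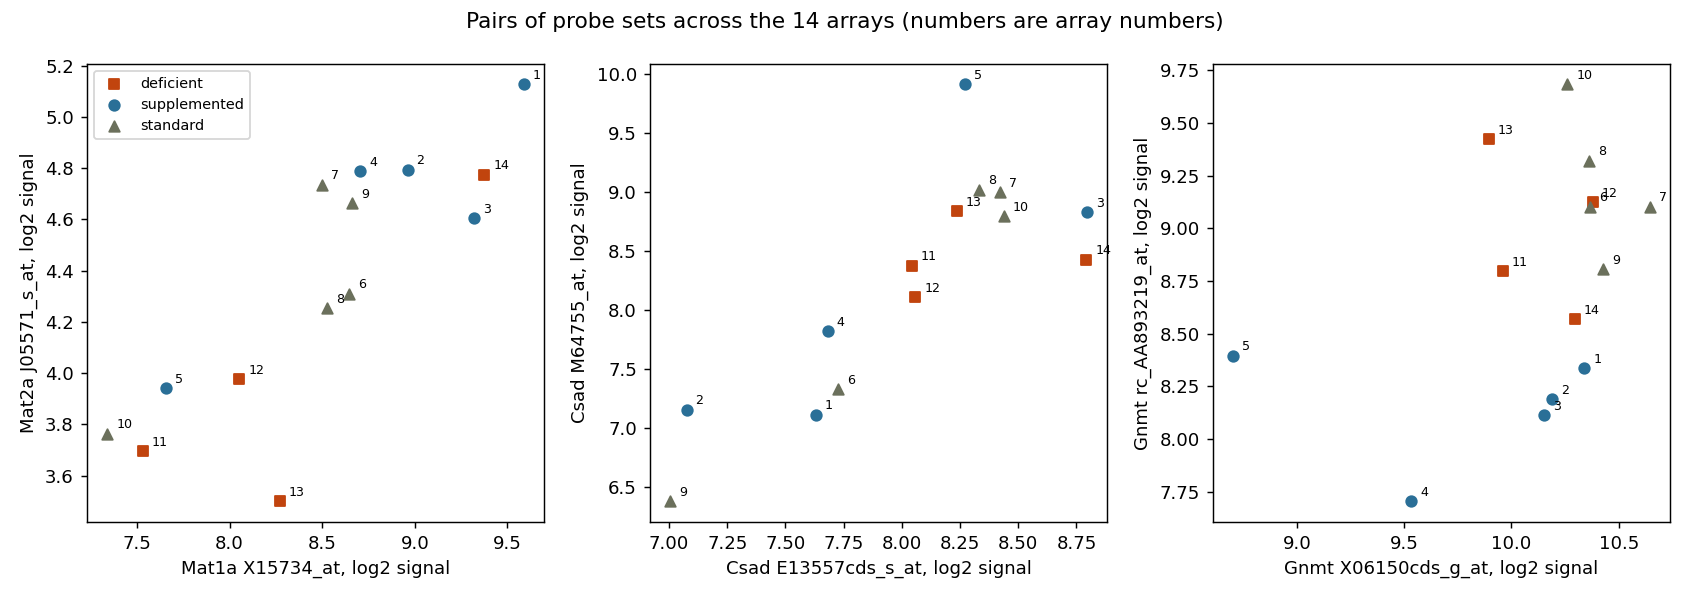
Log2 signals of 3 pairs of probe sets on the 14 arrays (both axes), with array numbers beside the points and diets by colour and shape. High Mat2a signals go with high Mat1a signals, and the 2 Csad probe sets also go together, while supplemented array 5 sits far to the left for the Gnmt coding-sequence probe set and not for the other Gnmt probe set.

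Gnmt encodes glycine N-methyltransferase, an abundant liver enzyme that uses up S-adenosylmethionine by methylating glycine. It lies at chr9:21752235-21756368 (GRCr8) and had 3 probe sets. The probe set rc_AA893219_at, designed on an expressed sequence tag, and assigned to Gnmt by the platform annotation, which was not checked against its sequence here, read 444, 558, 686 and 379.8 units in deficient livers, 323, 292, 277, 209 and 337 units in supplemented livers, and 549.8, 549.8, 639.6, 447 and 821 units in standard livers. Every supplemented array lay below every array of the other 2 diets, while the deficient and standard arrays overlapped. Of the 14 member probe sets this was the 1 that separated. For supplemented against standard 0.916% of all probe sets separated with supplemented lower and 0.896% with it higher, and for deficient against supplemented 3.08% separated with deficient higher and 1.87% with it lower. The signal was 2.08-fold lower in supplemented than in standard livers, a log2 difference of -1.06 (SE 0.20, 95% interval -1.49 to -0.62). Its unadjusted limma p was 0.000119, place 3 among the 5133 probe sets, and the adjusted p was 0.204. It was 1.78-fold higher in deficient than in supplemented livers (log2 difference 0.83, SE 0.22, adjusted p = 0.245), and deficient against standard gave -0.22 (SE 0.22, adjusted p = 0.999). That last difference was -0.10 without standard array 10, -0.37 without deficient array 13 and -0.09 without deficient array 14.

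Over all alternatives run, the adjusted p of the supplemented against standard difference of this probe set lay between 0.111 and 0.999. The difference was -1.12 without supplemented array 5, -0.94 without standard array 10 and -1.05 without deficient array 13. Its signal followed both RNA quality ratios. With the Gapdh ratio r was 0.740 and rho 0.788 (permutation, adjusted p = 0.0115 and 0.00868 over 28 relations), and r with the diet means removed was 0.495. With the beta-actin ratio r was 0.757 and rho 0.724 (adjusted p = 0.0115 and 0.0236), and r with the diet means removed was 0.824. Without the arrays farthest from the median ratio, 13 and 10, the 2 values of r were 0.562 and 0.610. With the Gapdh ratio as a covariate the supplemented against standard difference was -0.80, and with the beta-actin ratio -0.81. The deficient against supplemented difference was then 0.52 and 0.45.

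The other 2 Gnmt probe sets were designed on the same coding sequence and may share probes, which was not checked here. X06150cds_g_at read 996, 1331, 952 and 1256 units in deficient livers, 1295, 1169, 1139, 739.8 and 417 units in supplemented livers, and 1321, 1601, 1317, 1377 and 1226 units in standard livers. Supplemented arrays 4 and 5 were the lowest of the 14, and the other 3 supplemented arrays lay within the range of the deficient ones. Supplemented against standard gave -0.63 (SE 0.25, unadjusted p = 0.0255, adjusted p = 0.510) and -0.36 without supplemented array 5. X06150cds_at gave -0.75 (SE 0.41, adjusted p = 0.597) and -0.32 without that array. For deficient against supplemented the 2 probe sets gave 0.35 and 0.52, and 0.08 and 0.09 without that array. With the beta-actin ratio as a covariate the X06150cds_at differences were larger. They were -1.07 for supplemented against standard and 1.04 for deficient against supplemented. That fit kept supplemented array 5, which read 69.8 units for X06150cds_at, against 171 to 424 on the other supplemented arrays. A fit with the covariate and without that array alone was not run.

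The 3 readings of Gnmt shared a direction for supplemented against standard but ranked the arrays differently. The coding-sequence pair had r = 0.977 (permutation p = 1e-05, the smallest the resamples can give) and rho = 0.868, whereas rc_AA893219_at had r = 0.399 and rho = 0.396 with X06150cds_g_at (permutation p = 0.16 and 0.161). With the diet means removed, rc_AA893219_at had r = -0.17 with X06150cds_g_at and r = -0.27 with X06150cds_at, and without supplemented array 5 the values were 0.445 and 0.193. The log2 signal of rc_AA893219_at minus that of X06150cds_g_at within each array averaged -1.64 ± 0.75 in supplemented livers and -1.21 ± 0.42 in standard livers (SD, n = 5 each). The change of -0.43 had an exact permutation p = 0.294 (two-sided, adjusted 0.810 over 18 comparisons). Supplemented array 5 stood at -0.31, against -2.04 to -1.83 on the other 4 supplemented arrays. Without it the change was -0.76, with an exact permutation p = 0.0159, the smallest this design can give, and an adjusted 0.257 over the same 18 comparisons.

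Ahcy encodes S-adenosylhomocysteine hydrolase, which splits the product of methyl transfer and so keeps methyltransferases free of their inhibitor. It lies at chr3:164029338-164044562. Its probe set M15185_s_at read 1714, 1539, 1908 and 1785 units in deficient livers, 1375, 1709, 1543, 1281 and 721 units in supplemented livers, and 1766, 1649, 1939, 1661 and 1766 units in standard livers. Of the 5 supplemented arrays 4 lay below every standard array, and array 5 was the lowest of all. Supplemented against standard gave -0.46 (SE 0.18, unadjusted p = 0.0249, adjusted p = 0.510) and -0.25 without supplemented array 5. Deficient against supplemented gave 0.44 (SE 0.20, unadjusted p = 0.0393, adjusted p = 0.373) and 0.23 without that array, while deficient against standard gave -0.02 (SE 0.20).

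Ahcy signals were higher on arrays with a higher Gapdh ratio (r = 0.719, rho = 0.609, permutation, adjusted p = 0.0115 and 0.0711). The r was 0.802 without arrays 13 and 10, 0.555 without supplemented array 5 and 0.523 with the diet means removed. With that ratio as a covariate the differences were -0.21 for supplemented against standard and 0.13 for deficient against supplemented. Ahcy and the Gnmt probe set X06150cds_g_at had r = 0.819 and rho = 0.178 over the 14 arrays (permutation p = 0.0107 and 0.538, adjusted p = 0.122 and 0.827 over 91 pairs). That relation rests on supplemented array 5, without which r was 0.321.

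Bhmt encodes betaine-homocysteine methyltransferase, which remakes methionine in liver with betaine as the methyl donor. It lies at chr2:26594852-26614429. AF038870_at read 1472, 2512, 1512 and 1908 units in deficient livers, 2982, 2564, 2196, 1213 and 2876 units in supplemented livers, and 2992, 2304, 1821, 1321 and 1821 units in standard livers. All 3 diets overlapped over most of their range. Deficient against supplemented gave -0.32 (SE 0.27, adjusted p = 0.622), with 95% limits of -0.91 and 0.26, and without supplemented array 4 it gave -0.54. The difference was -0.05 with the Gapdh ratio as a covariate.

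Cbs and Cth encode the enzymes of transsulfuration. Cystathionine beta-synthase joins homocysteine and serine, and cystathionine gamma-lyase releases cysteine from the product. Cbs lies at chr20:9709394-9733925 and Cth at chr2:249634731-249661066. The Cbs probe set M88347_s_at read 476, 341, 594 and 379 units in deficient livers, 404, 364, 322, 279 and 273 units in supplemented livers, and 279, 338, 393, 278 and 335 units in standard livers. Deficient arrays 11 and 13 lay above all arrays of the other diets, and arrays 12 and 14 lay within their range.

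Cbs gave the 1 unadjusted hit for deficient against standard, a log2 difference of 0.44 (SE 0.19, 1.36-fold higher). Its limma p was 0.0378 and its limma adjusted p 0.999. Deficient against supplemented gave 0.43 (SE 0.19, unadjusted p = 0.0429, adjusted p = 0.373), and supplemented against standard 0.01 (SE 0.18). Without deficient array 13, which had the highest RNA quality ratios, the 2 differences were 0.29 and 0.28. With the Gapdh ratio as a covariate they were 0.39 and 0.13. The log2 signal of Cbs minus that of Bhmt on the same array, the pair of enzymes that compete for homocysteine, averaged -2.05 ± 0.69 in deficient livers (SD, n = 4) and -2.62 ± 0.50 in standard livers (SD, n = 5), a change of 0.57 (exact permutation p = 0.206, two-sided, adjusted 0.800 over 18 comparisons).

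For Cth, D17370_at read 624, 746, 1194 and 1766 units in deficient livers, 1781, 1418, 1477, 788 and 690.1 units in supplemented livers, and 2304, 1059, 589, 1098 and 987 units in standard livers. All 3 diets overlapped, and the signal spanned 3.91-fold over the 14 arrays. The differences were -0.13 for deficient against standard (SE 0.39), 0.08 for supplemented against standard (SE 0.37) and -0.21 for deficient against supplemented (SE 0.39). The second Cth probe set, D17370_g_at, was designed on the same sequence as the first and may share probes with it, which was not checked. It followed the first (r = 0.843, rho = 0.824, permutation p = 0.00019 and 0.00055). Its differences lay between -0.22 and -0.10.

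Cdo1 encodes cysteine dioxygenase, which commits cysteine to taurine and sulfate, and lies at chr18:41619076-41633719. Its 2 probe sets gave unlike results. The coding-sequence probe set E03229cds_s_at read 760.0, 589, 588 and 1086 units in deficient livers, 1176, 1625, 2217, 563 and 1408 units in supplemented livers, and 924, 1153, 434, 1202 and 298 units in standard livers. Supplemented arrays 2, 3 and 5 were the 3 highest of the 14, and the diets overlapped. Supplemented against standard gave 0.87 (SE 0.41, unadjusted p = 0.0525, adjusted p = 0.547) and deficient against supplemented -0.80 (SE 0.44, adjusted p = 0.438). Without standard array 10 the first of these was 0.56.

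The other Cdo1 probe set, rc_AA942685_at, read 3281, 2898, 3534 and 2735 units in deficient livers, 2785, 4264, 3795, 2624 and 3345 units in supplemented livers, and 3267, 3483, 3468, 2973 and 2847 units in standard livers. It varied 1.63-fold over the 14 arrays, against 7.44-fold for E03229cds_s_at. Its differences were 0.05 for supplemented against standard (SE 0.13, 95% interval -0.24 to 0.33) and -0.09 for deficient against supplemented (SE 0.14, 95% interval -0.40 to 0.21). The signal of E03229cds_s_at was lower at higher Gapdh ratios (r = -0.75, rho = -0.84, permutation, adjusted p = 0.0115 and 0.00504), whereas for rc_AA942685_at r was -0.07 and rho -0.07 (permutation p = 0.815 and 0.808). With the Gapdh ratio as a covariate the E03229cds_s_at differences were 0.11 for supplemented against standard and 0.12 for deficient against supplemented. The within-array difference of the 2 probe sets averaged -1.38 ± 0.53 in supplemented livers and -2.19 ± 0.87 in standard livers (SD, n = 5 each), and this change of 0.82 had an exact permutation p = 0.135 (two-sided, adjusted 0.800 over 18 comparisons).

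**Figure D4:**
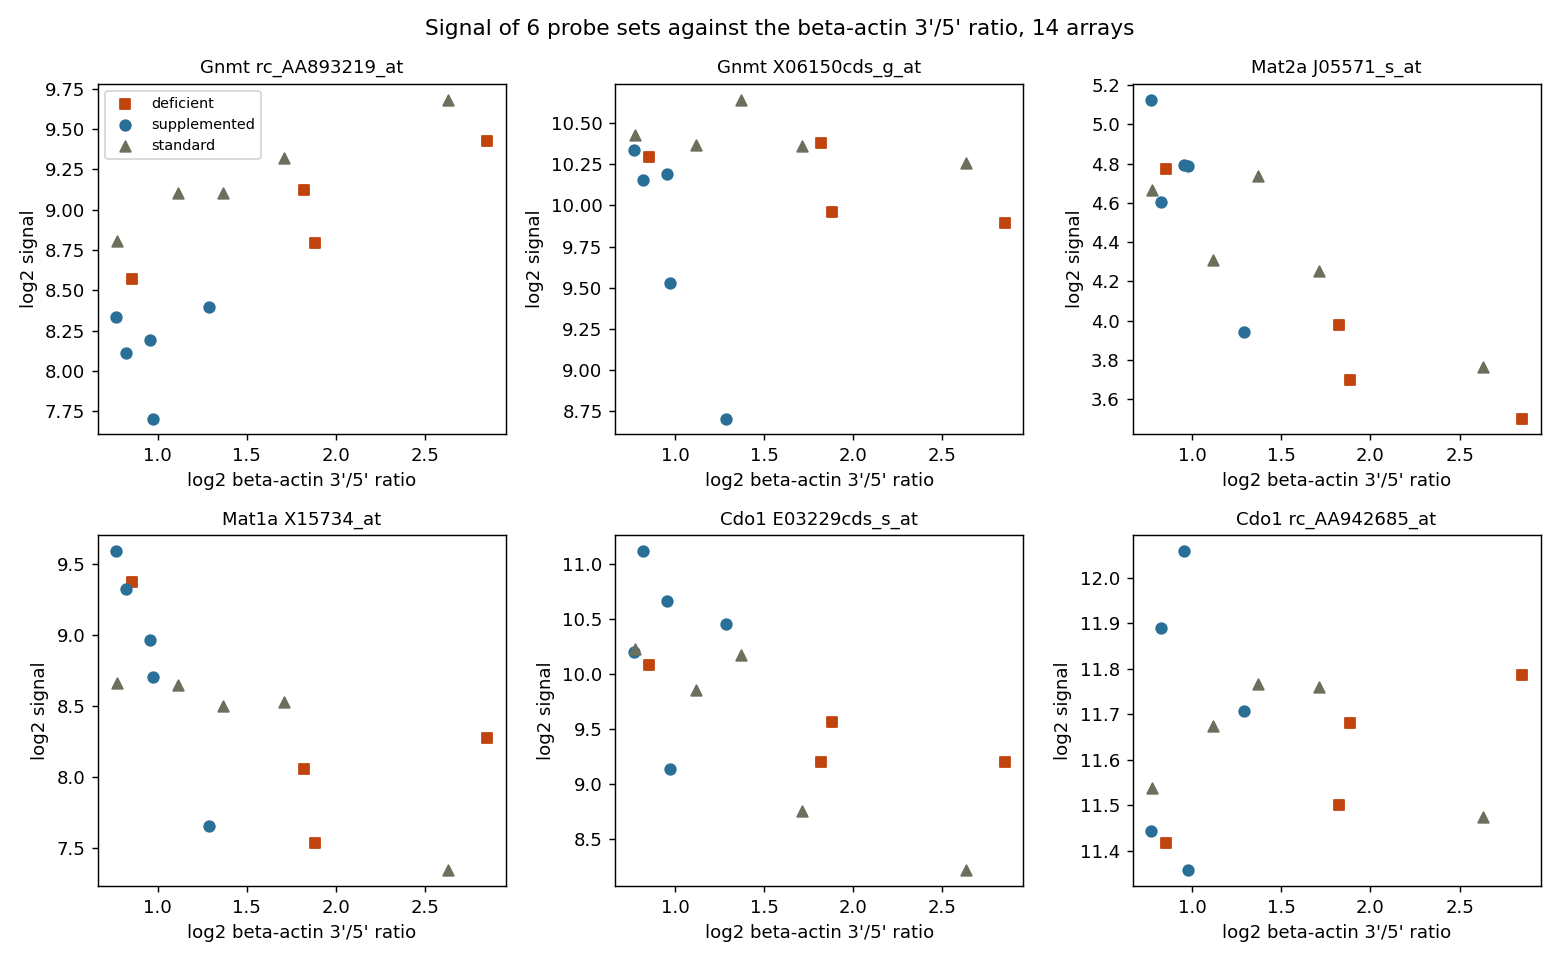
Log2 signal (vertical axis) of 6 probe sets against the log2 beta-actin 3'/5' ratio (horizontal axis) on the 14 arrays, with diets by colour and shape. The Gnmt probe set rc_AA893219_at is higher at higher ratios, Mat2a, Mat1a and the Cdo1 probe set E03229cds_s_at are lower, and the other Gnmt and Cdo1 probe sets show no such slope.

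Csad encodes cysteine sulfinic acid decarboxylase, which makes hypotaurine, the precursor of taurine, and lies at chr7:135187175-135216495. M64755_at was the most variable member. It read 332, 276, 457 and 343 units in deficient livers, 138, 142, 455, 226 and 963 units in supplemented livers, and 161, 511, 519, 83.1 and 443 units in standard livers. The signal spanned 11.6-fold over the 14 arrays, and its standard deviation within diets was larger than that of 96.1% of all probe sets tested. The deficient arrays lay close together, while supplemented and standard livers each held both low and high arrays. The differences were 0.33 for deficient against standard (SE 0.61), 0.06 for supplemented against standard (SE 0.57) and 0.27 for deficient against supplemented (SE 0.61). They moved with supplemented array 5, the highest of the 14, without which supplemented against standard was -0.38 and deficient against supplemented 0.71.

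The second Csad probe set, E13557cds_s_at, read 264, 267, 302 and 443 units in deficient livers, 198, 135, 444, 205 and 309 units in supplemented livers, and 212, 343, 322, 129 and 347 units in standard livers. It ordered the arrays much as the first did (r = 0.822, rho = 0.780, permutation p = 0.00033 and 0.00145, adjusted p = 0.00751 and 0.0330 over 91 pairs). Supplemented arrays 1, 2 and 4 and standard arrays 6 and 9 were the 5 lowest of the 14 for both probe sets. Neither was related to an RNA quality ratio at an adjusted p under 0.05. Deficient against supplemented gave 0.39 for E13557cds_s_at (SE 0.35, adjusted p = 0.648).

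Of the 28 relations between a member probe set and an RNA quality ratio, 7 passed after adjustment for Pearson's r. They belonged to Gnmt rc_AA893219_at, Cdo1 E03229cds_s_at and Ahcy for Gapdh, and to Mat1a, Mat2a, Gnmt rc_AA893219_at and Cdo1 E03229cds_s_at for beta-actin. The part of RNA quality in the differences between diets was not tested beyond the covariate values above.

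Neighbouring steps of the pathway were read from 8 lists holding 77 genes, of which 43 were tested and 0 were called in any comparison. Before adjustment, 0 of the 43 reached p under 0.05 for deficient against standard, beside 3.19% of the 3073 genes tested. For supplemented against standard 4 did (1 higher and 3 lower), or 9.30% beside 8.14% of all genes. For deficient against supplemented 9 did (5 higher and 4 lower), or 20.9% beside 12.3% of all genes. Of the choline, betaine and glycine list 11 genes were tested. Chdh, choline dehydrogenase, which makes betaine, gave -0.72 for deficient against supplemented (adjusted p = 0.264) and 0.50 for supplemented against standard (adjusted p = 0.517). Pcyt2, of phosphatidylethanolamine synthesis, gave 0.70 for deficient against supplemented (adjusted p = 0.304) and -0.43 for supplemented against standard.

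Adk, adenosine kinase, removes the adenosine released by Ahcy and was the 1 gene tested of the adenosine list. It gave -1.46 for deficient against supplemented (SE 0.55, adjusted p = 0.323) and 1.01 for supplemented against standard (adjusted p = 0.571). Of the folate list 2 genes were tested. Aldh1l1, which oxidises formyl-tetrahydrofolate, gave 0.38 for deficient against supplemented (adjusted p = 0.342). Mthfd1, which interconverts folate one-carbon units, gave 0.16 for deficient against supplemented (SE 0.24) and 0.39 for deficient against standard (SE 0.24, limma adjusted p = 0.999). Of the methyltransferase list 4 were tested. For deficient against supplemented, Pcmt1, a protein repair methyltransferase, gave -0.47 (SE 0.31) and Prmt3, a protein arginine methyltransferase, gave 0.15 (SE 0.19).

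Downstream of cysteine, Gclc, the catalytic subunit of the first enzyme of glutathione synthesis, gave -1.01 for deficient against supplemented (SE 0.40, adjusted p = 0.335), and Gsr, glutathione reductase, gave -0.60 (adjusted p = 0.373), in a list of 7 tested genes. Among the 9 tested genes of taurine, sulfite and sulfide handling, Papss2, which makes the activated sulfate donor, gave 0.38 for deficient against supplemented (SE 0.17). Baat, which conjugates bile acids with taurine or glycine, gave -0.21 in that comparison (SE 0.21). Of 4 polyamine genes, the ornithine decarboxylase regulators Oaz1 and Azin1 gave 0.42 (SE 0.20) and 0.11 (SE 0.24) for deficient against supplemented.

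Of 5 genes of the amino acid response, all were lower in supplemented than in standard livers by value and 2 of them at an unadjusted p under 0.05, with 0 called. Of all 3073 genes 54.9% were lower in that comparison and 8.14% had an unadjusted p under 0.05. Ddit3, a stress transcription factor, gave -1.24 for supplemented against standard (SE 0.45, adjusted p = 0.492), and its mean log2 signal was 7.04 in deficient livers and 5.54 in supplemented livers (adjusted p = 0.264). Trib3, a pseudokinase of the same response, gave -0.70 for supplemented against standard (adjusted p = 0.510) and 0.55 for deficient against supplemented (adjusted p = 0.442).

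The genes most like a member in pattern among 3064 other genes are given above for Mat1a and Mat2a. Here they are given for the members with the 3 smallest F-test p-values, Gnmt, Ahcy and Cbs, as a description over the 14 arrays. For Gnmt rc_AA893219_at they were Crispld2 (r = 0.896, rho = 0.913) and Dao (r = 0.893, rho = 0.884). For Gnmt X06150cds_g_at they were Alg10 (r = 0.896, rho = 0.758) and Hip1 (r = 0.896, rho = 0.437). For Ahcy they were Dgka (r = 0.935, rho = 0.671) and Ptpn23 (r = 0.933, rho = 0.768). For Cbs they were Vcf1 (r = 0.738, rho = 0.736) and Smad1 (r = 0.737, rho = 0.697). By r the neighbours of Cbs were less close than those of Gnmt and Ahcy. By rho they lay within the range of those of X06150cds_g_at and Ahcy. The points share the array normalisation and the RNA quality of each array.

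**Figure D5:**
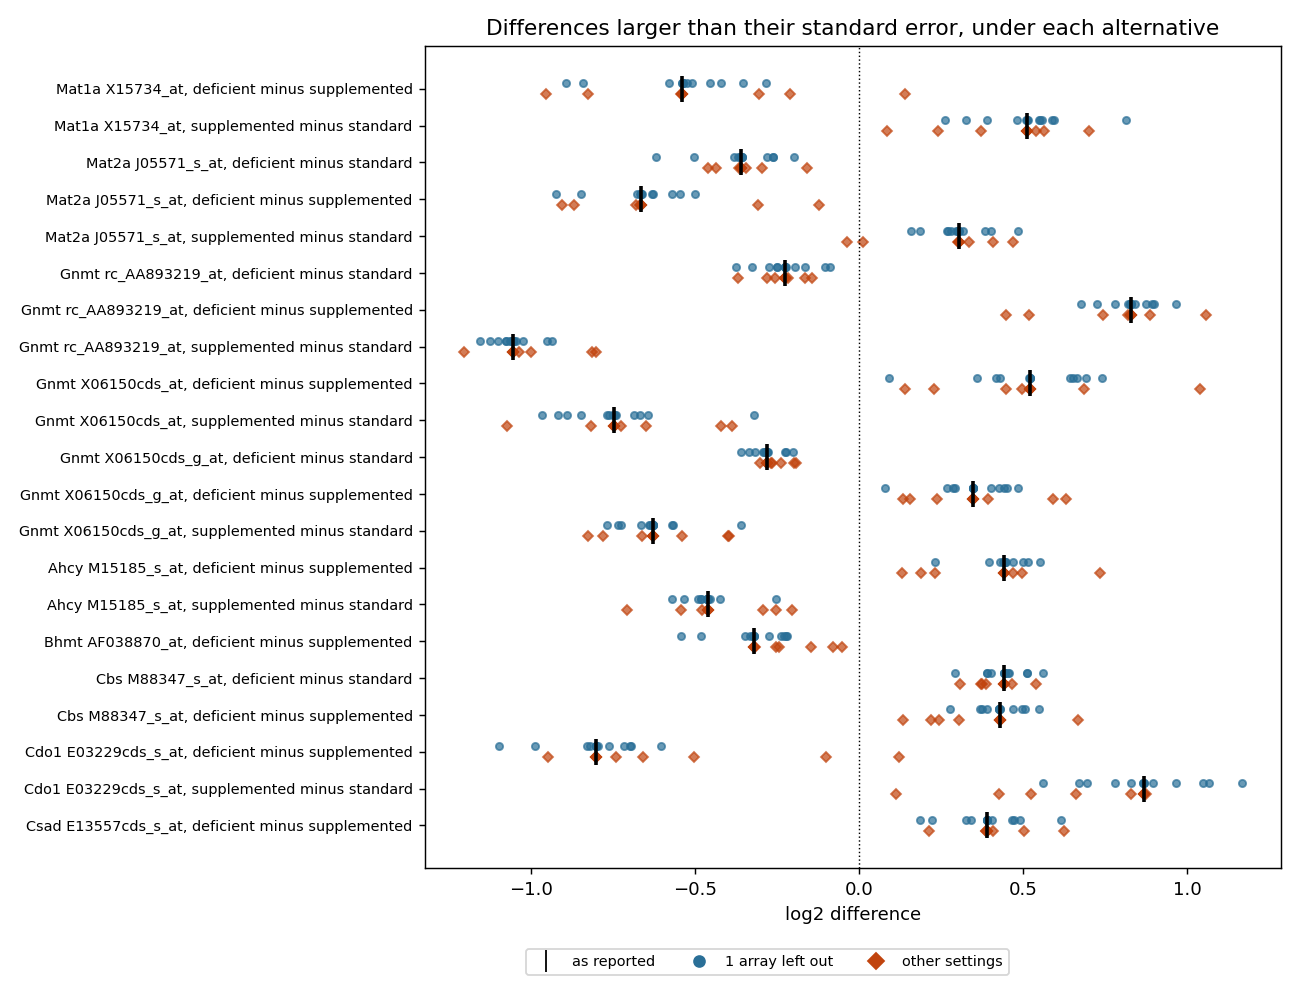
Log2 differences (horizontal axis) of the 21 member differences that were larger than their standard error, as reported (bars), with 1 array left out (circles) and under the other settings (diamonds). The Gnmt probe set rc_AA893219_at stays between -1.20 and -0.80 for supplemented against standard, and the points that cross 0 belong to Mat1a, Mat2a and Cdo1.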

How the data were processed

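Liver RNA of 14 arrays was read from 1 deposited table of linear intensity values. The authors had scaled the arrays together, as every trimmed mean was near 150.3 units. The labels' protocols give Trizol and RNeasy extraction and standard Affymetrix targets. The signal software is not given in the sources used here.

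Array medians differed by up to 1.91 times, above a limit of 1.5, so log2 signals were quantile normalised over 8740 probe sets. A floor was set at the 20th percentile of all signals (3.93 units). Probe sets with a mean above the 40th percentile (14.3 units) were kept, 5133 in all. The 3 diets were fitted in 1 model with limma 3.58.1 in R 4.3.3 (trend on the mean) and adjusted by Benjamini-Hochberg. Correlations used 100000 permutations in Python 3.11.15. All tests were two-sided and the scripts were tested on simulated data. No detection calls were used. Precision is limited by how few arrays each diet has.

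The members, lists and tests were chosen with earlier results of these data known. Named pathway genes were the 2 of each list with the smallest F-test p. Where a gene had several probe sets, the brightest stood for it in list counts. Correlations and within-array differences without supplemented array 5, correlations with a ratio removed, and single arrays left out of differences smaller than their standard error were added after seeing the data. Probe sets ending in _s_at can match related transcripts. Alternatives are listed below.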

Additional observations from a re-analysis of the deposited data

Results flagged for a closer look

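In 1 of 42 groups checked (a probe set within a diet), a single array lay far from the others. The Mat1a probe set X15734_at read 162 units on standard array 10, against 362 to 405 units on the other 4 standard arrays. About 1 in 20 such groups would stand out by chance. The same array had the second highest Gapdh 3'/5' ratio of the 14, 2.65 on the log2 scale. The part of that ratio in the Mat1a value was not tested.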

How the results depend on the processing

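No paired analysis was possible because the array numbers run on from diet to diet, so that no number is shared between diets. Under the 27 alternatives, of which 14 left out 1 array each, 0 members were called in every comparison by limma. The median member difference lay between -0.16 and 0.02 for deficient against standard (the same range when 1 array was left out), between -0.13 and 0.15 for supplemented against standard (-0.0012 to 0.15 with 1 array left out) and between -0.18 and 0.20 for deficient against supplemented (-0.18 to 0.01 with 1 array left out). Of 543 values of the 21 member differences larger than their standard error, 540 kept their sign. With the Gapdh ratio as a covariate the Cdo1 probe set E03229cds_s_at gave 0.12 for deficient against supplemented. With the beta-actin ratio Mat2a gave -0.035 for supplemented against standard and Mat1a 0.14 for deficient against supplemented. Centring the arrays on their median gave the lowest Ahcy value for supplemented against standard, -0.71. It also gave the highest Cbs value for deficient against supplemented, 0.67. Mat2a was not kept by the filter at the 60th percentile. The other 21 differences were smaller than their standard error, from -0.22 to 0.33, with adjusted p of at least 0.802, and 15 of them changed sign when some 1 array was left out (4 without supplemented array 5, standard array 10 or deficient array 13). Dim signals limit Mat2a most, and whether it lay above background is unknown without detection calls.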
